A study of Mus musculus with 2 samples.

Results

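The 10 genes described here, Fos, Fosb, Jun, Junb, Atf3, Egr1, Klf6, Ier2, Zfp36 and Dusp1, encode immediate early transcription factors and the feedback proteins induced with them. They were chosen by symbol from 15181 genes named in any of 22 tables of single-cell RNA sequencing of cells from infarcted mouse ventricles. In 4 tables of fibroblast subclusters all 10 genes had a value among 15059 genes. In 18 tables of whole cell clusters, which list a gene only when it passed the authors' limits, 8 of the 10 were listed in at least 1 table. Each value is the share of cells of a cluster, within 1 library, whose count of the transcript was above 0 after the authors' SCTransform correction for depth. A transcript is called counted below in this corrected sense, so that a share is not the raw share of cells with a read.

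The study compared 2 libraries of interstitial cells, 1 per genotype, both from hearts of adult mice with a ligated left anterior descending artery. Control mice carried PostnMCM, an inducible Cre recombinase driven by Postn, a gene that injured fibroblasts switch on as they turn into myofibroblasts. The other mice carried the same Cre with Yap1 floxed on 2 alleles and Wwtr1 on 1 (Yapfl/fl;Wwtr1fl/+;PostnMCM). Both strains carried the R26-eGFP reporter, both were fed chow with 0.4 g/kg tamoxifen citrate after myocardial infarction (MI), and the labels place collection at 6 days after MI, while the study's methods state another day. Cre acts in cells that express Postn and is not meant to act in immune cells. Hearts were dissociated by enzyme perfusion and viable cells were sorted, and the number of hearts behind each library is not given in the sources used here.

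Immediate early genes are transcribed within minutes of a stimulus and need no new protein for it, since the factors that switch them on (SRF with its partners at CArG boxes, CREB at cyclic AMP response elements) are already in the cell. FOS, JUN and ATF proteins pair through leucine zippers to form AP-1, which shares many enhancers with TEAD, the DNA-binding partner of YAP and TAZ. Zfp36 and Dusp1 are induced by the same signals and end them, the first by the decay of AU-rich mRNAs and the second by dephosphorylating MAP kinases. In heart these genes respond to stretch, ischemia and wounding, and in many tissues they are also known to respond to enzymatic dissociation, which both libraries underwent. The part of dissociation in the values below was not tested, and in single libraries it cannot be told apart from genotype.

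The promoters of Fos, Ier2 and Dusp1 are shown because they carry the cyclic AMP response element or its half-site, the element most common among the members. Each runs 5′ to 3′ on the strand of its gene in GRCm39 and ends at or just before the start of the canonical GENCODE transcript. Capitals mark TGACGTCA, the full element, or TGACG, its half-site, where these letters lie on the printed strand. The Fos window is chr12:85520408-85520657 on the plus strand, the Ier2 window chr8:85389484-85389733 on the minus strand and the Dusp1 window chr17:26727507-26727743 on the minus strand. The Dusp1 window leaves out the bases that another Dusp1 transcript has in an exon, and it overlaps an exon of Gm56886 on the opposite strand.
Fos: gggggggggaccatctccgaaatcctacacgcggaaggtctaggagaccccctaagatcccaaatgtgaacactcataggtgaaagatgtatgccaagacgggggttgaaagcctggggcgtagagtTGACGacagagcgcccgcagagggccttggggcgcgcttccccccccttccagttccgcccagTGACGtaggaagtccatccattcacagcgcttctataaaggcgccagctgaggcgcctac
Ier2: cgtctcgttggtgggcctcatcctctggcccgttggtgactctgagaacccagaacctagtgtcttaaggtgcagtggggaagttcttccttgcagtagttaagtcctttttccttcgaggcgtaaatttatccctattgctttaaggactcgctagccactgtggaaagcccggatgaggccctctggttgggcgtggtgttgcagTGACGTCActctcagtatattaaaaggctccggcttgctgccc
Dusp1: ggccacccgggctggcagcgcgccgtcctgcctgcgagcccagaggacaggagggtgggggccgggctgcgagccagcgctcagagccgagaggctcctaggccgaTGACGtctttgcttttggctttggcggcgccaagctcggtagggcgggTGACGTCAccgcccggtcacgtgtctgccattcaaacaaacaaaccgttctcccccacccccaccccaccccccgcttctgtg

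The full element TGACGTCA, searched on both strands in the 250 bases before each start, was found in 2 of 10 members, Ier2 (43 bases before the start) and Dusp1 (96 bases), and in 1.69% of 21770 promoters. The half-site TGACG, which the full element contains on both strands, was found in 6 members (Fos, Fosb, Junb, Egr1, Ier2 and Dusp1) and in 18% of promoters. In Fos it lay 123 and 60 bases before the start. The TEAD motif GGAATG was found in Egr1 alone and in 12.1% of promoters. None of the 10 windows held the AP-1 motif TGANTCA (6.17% of promoters) or a CArG box (1.4%), which says only that these letters are not in these windows. The match of letters is a description and not evidence that a factor binds.

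Of 7 fibroblast markers, Col1a1, Col1a2, Col3a1 and Dcn were counted in 100% of cells of both libraries in all 4 fibroblast subclusters, while the other 3 varied. Postn, which drives Cre, was at 25.5%, 40%, 10% and 87% in control cells of subclusters 0, 3, 4 and 5 and at 28.1%, 13%, 20% and 100% in the second library. Pdgfra was at 38.6%, 66.7%, 85% and 87% and at 71.9%, 87%, 80% and 81%, and Lum at 35.9%, 26.7%, 40% and 100% and at 34.4%, 47.8%, 40% and 100%. Postn was thus counted in most cells of subcluster 5 alone, and in subcluster 3 its share was lower in the second library. The targeted transcripts were not uniformly lower. Yap1 was counted in 46.2%, 23.3%, 57.5% and 30.4% of control cells in subclusters 0, 3, 4 and 5 and in 56.2%, 43.5%, 40% and 47.6% of cells of the second library, which is therefore called the library labelled depleted. Wwtr1 was at 81.4%, 93.3%, 80% and 100% in control cells and at 90.6%, 91.3%, 60% and 85.7% in the library labelled depleted, lower in 3 of the 4. Counts at the 3′ end of a transcript need not fall when a floxed exon is lost. There were no replicates. The numbers of cells and counts per cell behind each share are not given, so the values carry no error and no test of genotype was possible. In the library labelled depleted the smallest share above 0 was 3.1%, 4.3%, 10% and 4.8% in the same order of subclusters. In the control library it was 0.7%, 3.3%, 2.5% and 4.3%. Every share of a gene printed here for subcluster 4 of the library labelled depleted is a multiple of 10%, so few cells stand behind those shares.

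In fibroblasts the immediate early genes did not move together. Differences are given as the library labelled depleted minus control, in percentage points, and a difference of at least 10 points is counted. In subcluster 0, which the study places near epicardial cells, 2 members were lower by at least 10 points (Klf6 and Ier2) and 1 was higher (Atf3), beside 13.9% lower and 16.8% higher among 8490 genes with a share of at least 25% in either library. In subcluster 3, the proliferating myofibroblasts of the study, 2 were lower (Fosb and Zfp36) and 4 higher (Jun, Junb, Ier2 and Dusp1), beside 23.3% and 18.2% of 9015 genes. In subcluster 4, the matrifibrocytes, 1 was lower (Atf3) and 3 were higher (Jun, Egr1 and Klf6), beside 24.8% and 33.5% of 9130 genes. In subcluster 5, the secretory myofibroblasts, 3 were lower (Fosb, Atf3 and Zfp36) and 3 higher (Junb, Egr1 and Dusp1), beside 21.5% and 29.7% of 8349 genes. Apart from the higher members of subcluster 3 (4 of 10 beside 18.2%), each count lay within 2 members of the number that the percent of all genes would give. The background was not matched for control share. In subcluster 0 Fos, Jun, Junb, Egr1 and Klf6 were at 92.4% to 97.2% in control and could not be higher by 10 points. Fosb in subclusters 3 and 4 and Atf3 in subclusters 4 and 5 were below 25% in both libraries, so they are counted among the members but were not in the background.

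**Figure D1:**
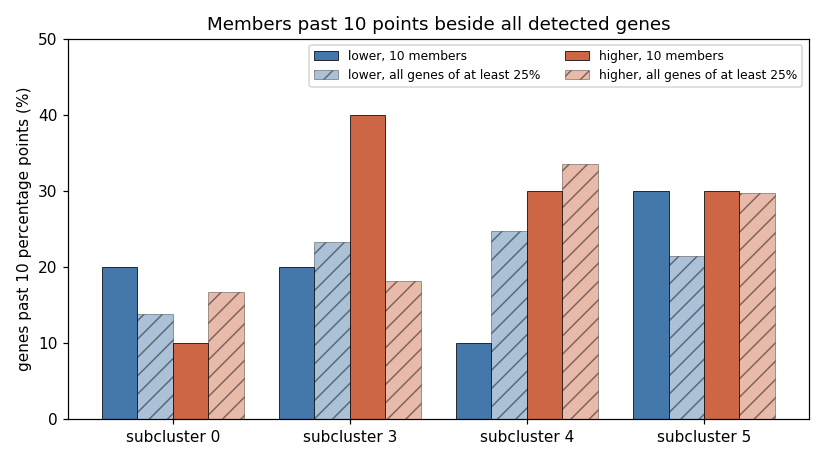
Percent of genes whose share of cells differed by at least 10 percentage points between the libraries, in 4 fibroblast subclusters (horizontal axis). Solid bars stand for the 10 members and hatched bars for all genes with a share of at least 25% in either library, blue for lower and orange for higher in the library labelled depleted. The solid and hatched bars lie farthest apart for higher genes in subcluster 3 (4 of 10 members beside 18.2%).

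Subclusters 0, 3, 4 and 5 had median differences of the 10 members of -5.65, 6.5, 6.25 and -2.05 points. Over all genes of at least 25% it was 0.3, 0, 2.5 and 0.2. In subcluster 0, 8 members were lower by any amount and 2 higher, in subcluster 3 it was 3 and 7, in subcluster 4 it was 4 and 6, and in subcluster 5 it was 7 and 3. Fos, Jun, Junb, Egr1 and Klf6 had little room to rise in subcluster 0. In control cells the mean share of the 10 members was 79.8%, 62.66%, 62.75% and 69.13% in that order, and in the library labelled depleted it was 75.31%, 67.83%, 69% and 64.28%. The members were thus counted most broadly in subcluster 0 in both libraries, and the 4 means of the library labelled depleted lay closer together than those of the control library.

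**Figure D2:**
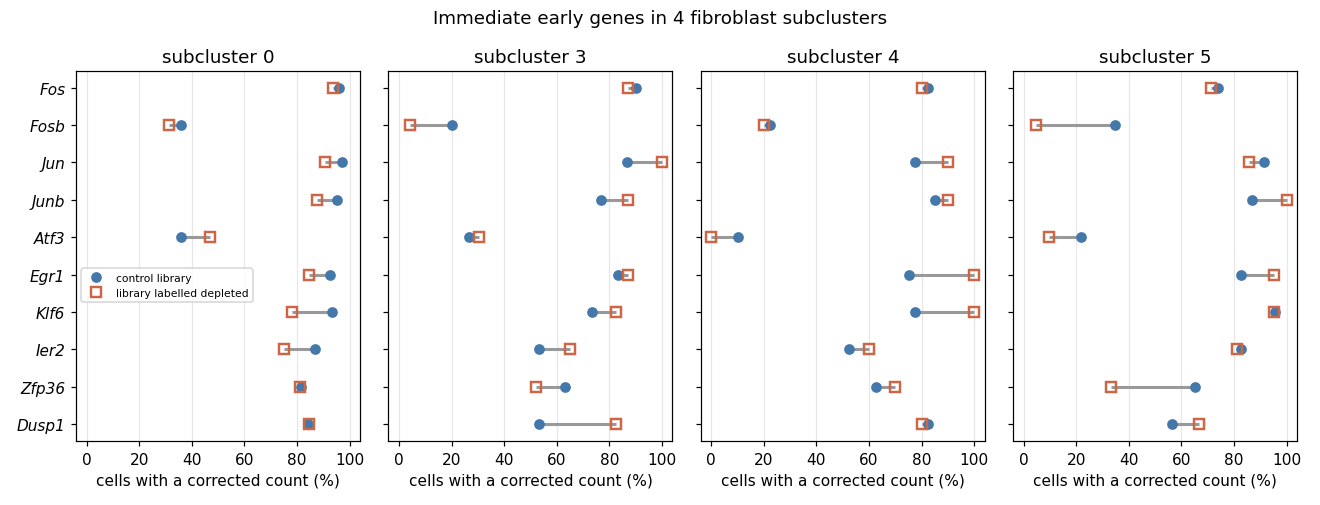
Share of cells with a corrected count of each transcript above 0 (percent, horizontal axis) in 4 fibroblast subclusters, for the control library (filled circles) and the library labelled depleted (open squares), 1 library each and no error bars. Fos lies to the left of control in all 4 panels by at most 3 points, while Fosb and Zfp36 in subcluster 5 and Dusp1 in subcluster 3 differ by -30, -31.9 and 29.3 points.

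The FOS family differed between its members, whose positions are given in GRCm39. Fos (chromosome 12, 85520658 to 85524047), which pairs with JUN proteins, was counted in 95.9% of control cells and 93.8% of the other library's cells in subcluster 0, 90% and 87% in subcluster 3, 82.5% and 80% in subcluster 4, and 73.9% and 71.4% in subcluster 5. It was lower in all 4 by 2.1 to 3 points, less than the smallest share above 0 of the library labelled depleted in each. Fosb (chromosome 7, 19036621 to 19043976), a FOS paralog often tied to repeated stimulation, was at 35.9% and 31.2%, 20% and 4.3%, 22.5% and 20%, and 34.8% and 4.8% in the same order. Fosb was also lower in all 4 subclusters, but its differences were -15.7 points in subcluster 3 and -30 points in subcluster 5, in both of which its share in the library labelled depleted equalled the smallest share above 0.

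The JUN family was counted in most fibroblasts of both libraries. Jun was at 97.2% in control cells and 90.6% in the library labelled depleted in subcluster 0, 86.7% and 100% in subcluster 3, 77.5% and 90% in subcluster 4, and 91.3% and 85.7% in subcluster 5. Junb (chromosome 8, 85701113 to 85705359), which can also hold back JUN at some promoters, was at 95.2% and 87.5%, 76.7% and 87%, 85% and 90%, and 87% and 100%. Both were lower in subcluster 0 and higher in subclusters 3 and 4, and they differed in direction in subcluster 5, with Jun at -5.6 points and Junb at 13 points. The gene Jun lies on chromosome 4 (94937271 to 94940459) next to an annotated antisense gene, Junos, and whether the counting used strand was not stated in the sources used here.

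Atf3 (chromosome 1, 190902493 to 190950241), a stress-induced ATF that acts mostly as a repressor of transcription, was at 35.9% in control cells and 46.9% in the library labelled depleted in subcluster 0, and 26.7% and 30.4% in subcluster 3. In subcluster 4 it was at 10% and 0%, and in subcluster 5 at 21.7% and 9.5%. It was higher in the first pair and lower in the second. The difference of 10 points in subcluster 4 is the smallest share above 0 that this library shows there.

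Egr1, a zinc-finger factor downstream of SRF, was at 92.4% in control cells and 84.4% in the library labelled depleted in subcluster 0, 83.3% and 87% in subcluster 3, 75% and 100% in subcluster 4, and 82.6% and 95.2% in subcluster 5. It was lower in subcluster 0 and higher in the other 3, by 25 points in subcluster 4. Klf6 (chromosome 13, 5911481 to 5920393), a Krüppel-like zinc-finger factor induced by wounding, was at 93.1% and 78.1%, 73.3% and 82.6%, 77.5% and 100%, and 95.7% and 95.2%. Klf6 was the member farthest below control in subcluster 0 (-15 points), and in subcluster 4 it was counted, like Egr1, in every cell of the library labelled depleted. Few cells of that library stand behind the shares of subcluster 4. Ier2 (chromosome 8, 85387960 to 85389483), a small nuclear protein of the immediate early response, was at 86.9% and 75%, 53.3% and 65.2%, 52.5% and 60%, and 82.6% and 81%, with differences of -11.9 points in subcluster 0 and 11.9 points in subcluster 3.

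The feedback genes went apart in subclusters 3 and 5. Zfp36 (chromosome 7, 28076209 to 28079710), which encodes tristetraprolin, was at 81.4% in control cells and 81.2% in the library labelled depleted in subcluster 0, 63.3% and 52.2% in subcluster 3, 62.5% and 70% in subcluster 4, and 65.2% and 33.3% in subcluster 5. Dusp1 (chromosome 17, 26724564 to 26781102), the MAP kinase phosphatase, was at 84.1% and 84.4%, 53.3% and 82.6%, 82.5% and 80%, and 56.5% and 66.7%. In subclusters 3 and 5 Zfp36 was lower, with differences of -11.1 and -31.9 points, while Dusp1 was higher, with 29.3 and 10.2 points. In subcluster 0 both differed by less than 1 point.

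The order of the members was taken from the median of their 8 shares (4 subclusters in 2 libraries). Jun (90.3%), Klf6 (87.85%), Junb (87.25%), Egr1 (85.7%), Fos (84.75%) and Dusp1 (81.25%) were followed by Ier2 (70.1%) and Zfp36 (64.25%), and by Atf3 (24.2%) and Fosb (21.25%). The first 6 overlapped widely, with lowest shares of 53.3% to 77.5% and highest shares of 84.4% to 100%, and neighbours in this order did not differ beyond their spread. Atf3 and Fosb did not reach 50% in any of the 8, and Zfp36 alone of the other members was below 50%, in subcluster 5 of the library labelled depleted. The order is one of detection and not of level per cell. Over the same 8 shares, each member's correlation with the mean of the other 9 ran from 0.12 (Klf6) to 0.56 (Jun), values that share libraries and depth.

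Transcripts of other cell types differed between the libraries in the same subclusters. The shares of 6 neutrophil markers summed to 226.1 to 280.7 points in control fibroblasts and to 134.3 to 147.8 points in those of the library labelled depleted, and at least 4 of the 6 were lower in every subcluster. For 6 macrophage markers the sums were 278.2 to 353.2 and 190.5 to 280 points. All 6 were lower in subcluster 0, and in each other subcluster 4 were lower and 2 higher. The 4 globin genes were lower in all 4 subclusters, with sums of 56.4 to 106.6 and 0 to 12.9 points. Sums for 4 T cell markers were instead 28.2 to 40.1 points in control and 31.2 to 86.8 points in the library labelled depleted. Of these markers 2 were higher in subcluster 0 and 3 in each other subcluster, while Cd2 was lower in all 4 subclusters. Immune cells express most of the members too, and the part of such foreign RNA in the shares above was not tested.

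Wider lists from the same response gave a mixed picture. Of 10 other AP-1 and CREB-like factors, those with a share of at least 25% in either library numbered 5 in subcluster 0 (none past 10 points), 6 in subcluster 3 (2 lower, 1 higher), 6 in subcluster 4 (5 lower, 0 higher) and 7 in subcluster 5 (1 lower, 0 higher). Their medians were -3.1, -3.05, -16.25 and -0.2 points. Fosl2, a FOS-related AP-1 subunit, was at 80% in control and 40% in the library labelled depleted in subcluster 4 and at 80% and 60.9% in subcluster 3, whereas Jund, the JUN that is made constitutively, was at 93.3% or more in all 8. The 5 of 6 in subcluster 4 stand beside 24.8% of all genes there, and Jund was among the 6 as the one that did not differ.

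Of 43 other immediate early and feedback genes, 8 were lower by at least 10 points and 6 higher among 35 detected in subcluster 0, 5 and 7 among 37 in subcluster 3, 4 and 17 among 38 in subcluster 4, and 9 and 6 among 34 in subcluster 5. Beside them stand, lower and higher over all genes, 13.9% and 16.8%, 23.3% and 18.2%, 24.8% and 33.5%, and 21.5% and 29.7%. Their medians were -2.8, 2.6, 5 and -0.8 points, which have the signs of the members' medians in each subcluster. Nfkbia, the inhibitor of NF-κB that NF-κB itself induces, was at 55% and 90% in subcluster 4. Btg2, an antiproliferative early gene, was at 53.3% and 82.6% in subcluster 3, the same shares as Dusp1. In subcluster 5, Ier3 was at 91.3% and 52.4% and Klf4 at 82.6% and 42.9%. Zfp36l1, the paralog of Zfp36, was counted in 100% of cells in all 8, also where Zfp36 was at 33.3%.

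Across the 18 cluster tables the members were listed 47 times of 180 possible, 19 times lower and 28 times higher, beside 49.9% lower and 45.4% higher of all 15431 listings. By at least 10 points it was 11 lower and 21 higher, beside 38.6% and 34.1%. A gene is listed only past a size limit of 0.25 on the authors' log2 scale and a share of 25% in either library, so that an unlisted member has no value there and may have differed by less or been rarer. Clusters 2 (B cells), 6 (outside the study's list of named clusters) and 10 (T cells) list no member, and 6 clusters list at least 4. Fosb and Egr1 are listed in no cluster.

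**Figure D3:**
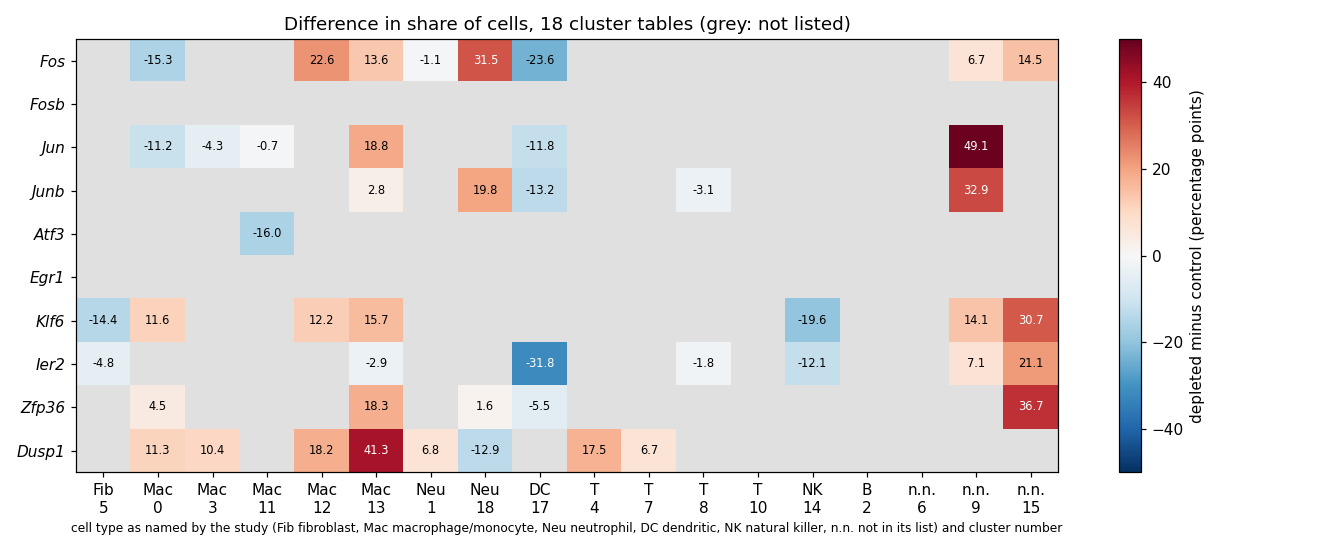
Difference in the share of cells (library labelled depleted minus control, percentage points, colour and printed value) for the 10 members in 18 clusters, grouped by the study's cell type names (n.n. for clusters outside its list); grey cells are not listed and have no value. All 9 values of clusters 9 and 15 are above 0 and all 5 of cluster 17 are below 0, but when centred on the median listed gene of the table Jun, Junb and Zfp36 of cluster 17, Zfp36 of cluster 0, Jun of cluster 11 and Junb of cluster 13 change sign.

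Fibroblasts as a whole, cluster 5, list 2 of the 10 members, and both were lower, beside 54% lower and 44% higher of 605 listed genes. Klf6 was at 55% in control and 40.6% in the library labelled depleted, and Ier2 at 57.7% and 52.9%. The neutrophil markers S100a8 and S100a9 were lower in cluster 5 too (32.6% to 49.7% in control and 5.9% to 9.1%), and their part was not tested. The same 2 genes were the members that lay at least 10 points lower in subcluster 0, whose cells are part of cluster 5. The shares of Klf6 in cluster 5 were below all 8 shares of the subclusters, of which the lowest was 73.3%, although those cells are part of cluster 5. The depth correction was run anew for the subclusters and subclusters 1 and 2 were not analysed here, so shares of the cluster and of the subclusters are not on 1 scale.

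The 14 immune clusters list members 36 times of 140 possible, 17 lower and 19 higher, beside 47% lower and 47.5% higher of 11445 listings. By at least 10 points 10 were lower and 14 higher, beside 36.4% and 35.3% of those listings. The 2 lower listings of cluster 5 are too few to set a direction apart from the immune clusters, and the difference was not tested. The 2 genes that cluster 5 lists were both lower in 1 immune cluster as well, the natural killer cells of cluster 14, with Klf6 at 65.8% and 46.2% and Ier2 at 50.6% and 38.5%. In cluster 14 Cd2 was at 73.4% and 46.2% and Col3a1 at 26.6% and 11.5%, whereas the macrophage genes C1qb and Lyz2 were higher (68.4% to 83.5% in control and 80.8% to 96.2%), and the part of these in the members' differences was not tested.

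The macrophage and monocyte clusters (0, 3, 11, 12 and 13) hold 19 of the immune listings, 6 lower and 13 higher, beside 41% and 52.9% of all their listings. Cluster 13 lists the most members, 7, and 6 of them were higher, beside 55.7% of all 893 genes listed there, whose median difference was 4.6 points. In it Dusp1 was at 43.2% in control and 84.5% in the library labelled depleted, Zfp36 at 78.9% and 97.2%, and Klf6 at 75.8% and 91.5%. Fos was at 77.9% and 91.5%, Jun at 47.4% and 66.2%, Junb at 95.8% and 98.6%, and Ier2 at 70.5% and 67.6%. Relative to that median Dusp1, Jun, Zfp36, Klf6 and Fos were higher by 9 to 36.7 points, while Junb was at -1.8 and Ier2 at -7.5 points. In the same cluster 4 neutrophil markers were listed, all lower (26.3% to 57.9% in control and 8.5% to 50.7%), and the macrophage marker C1qb was at 52.6% and 26.8%.

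In cluster 0 the AP-1 factors Fos and Jun differed in the other direction from Klf6 and Dusp1. Fos was at 75.4% in control and 60.1% in the library labelled depleted and Jun at 80.3% and 69.1%, both lower, while Klf6 (76.7% and 88.3%), Dusp1 (50.4% and 61.7%) and Zfp36 (65.8% and 70.3%) were higher. The median listed gene of cluster 0 was itself 9.3 points higher, and relative to it Klf6 was at 2.3 points, Dusp1 at 2 and Zfp36 at -4.8. Cluster 3 lists Jun at 79.4% and 75.1% and Dusp1 at 46.8% and 57.2%. In cluster 12 Fos (34.4% and 57%), Klf6 (68.8% and 81%) and Dusp1 (37.5% and 55.7%) were all higher. Cluster 11 lists Jun at 79.9% and 79.2% and is the one cluster to list Atf3, at 30.6% and 14.6%, together with all 6 neutrophil markers lower (34.7% to 63.9% in control and 6.2% to 31.2%) and 4 macrophage markers lower (31.2% to 79.2% and 18.8% to 50%). Of the markers of other cell types, S100a8 and S100a9 were lower in cluster 0 (54.8% to 68.3% in control and 20.3% to 34.3%). They were also lower in cluster 3 (52.1% to 57.1% and 23.8% to 26.8%), as was Col3a1 (41.5% and 26%). In cluster 12 Col3a1 and Dcn were lower (30.2% and 6.3% to 19%). Of S100a8 and S100a9, 1 was lower and 1 higher in cluster 12 (47.9% to 63.5% in control and 46.8% to 51.9%). The part of these marker differences in those of the members was not tested.

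The neutrophil clusters list 6 members, 2 lower and 4 higher, beside 55.3% and 39.7%. In cluster 1 nearly every cell held Fos (98% in control and 96.9% in the library labelled depleted) and Dusp1 (90.5% and 97.3%), the highest control shares of both genes in any cluster that lists them. Cluster 18 had Fos at 27.3% and 58.8%, Junb at 27.3% and 47.1%, Zfp36 at 45.5% and 47.1% and Dusp1 at 36.4% and 23.5%. Of the markers checked, cluster 1 lists the neutrophil genes Retnlg and Lcn2 lower (71% to 85.9% in control and 44% to 64.1%) and Lyz2 at 99.7% and 99.6%. Cluster 18 lists the fibroblast gene Col3a1 at 36.4% and 5.9% and Lyz2 at 100% in both libraries. It also lists the neutrophil genes Retnlg and Cxcr2, 1 lower and 1 higher (63.6% to 81.8% in control and 70.6%). The part of these markers was not tested. Shares in cluster 18 move in coarse steps, with 9 points in control and 5.8 points in the other library as the smallest distance between any 2 values of the table. The median listed gene of cluster 18 was at -11.8 points, and relative to it Fos was at 43.3 points and Dusp1 at -1.1, less than these steps.

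**Figure D4:**
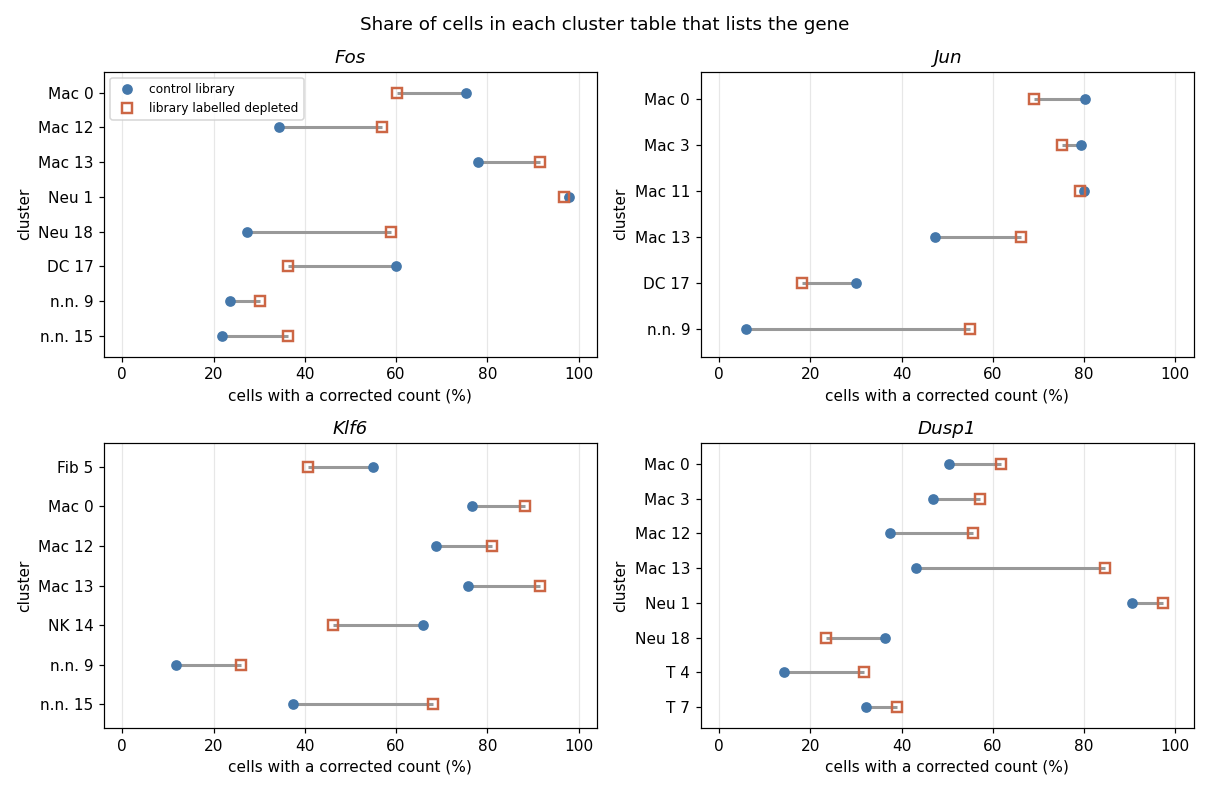
Share of cells with a corrected count above 0 of Fos, Jun, Klf6 and Dusp1 (percent, horizontal axis) in each cluster that lists the gene (vertical axis, cell type abbreviation and cluster number as the study names them, n.n. for clusters outside its list), for the control library (filled circles) and the library labelled depleted (open squares), 1 library each. Each gene lies on both sides of control, with Dusp1 to the right in 7 of 8 clusters, Klf6 in 5 of 7, Fos in 5 of 8 and Jun in 2 of 6.

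In dendritic cells, cluster 17, all 5 listed members were lower, beside 57.5% lower and 38.8% higher of 1914 listed genes. Ier2 was at 50% in control and 18.2% in the library labelled depleted, Fos at 60% and 36.4%, Jun at 30% and 18.2%, Junb at 95% and 81.8%, and Zfp36 at 60% and 54.5%. The median listed gene of this cluster was at -13.6 points, and relative to it Jun was at 1.8, Junb at 0.4 and Zfp36 at 8.1 points, so that Ier2 and Fos alone lay at least 10 points below. The smallest distances between shares were 5 and 9 points here. All 4 markers of other cell types that the cluster lists were lower as well, S100a8 and S100a9 (25% to 50% in control and 9.1% to 27.3%), Lyz2 (70% and 54.5%) and Col3a1 (35% and 0%), and their part in the members' differences was not tested.

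The T cell clusters (4, 7, 8 and 10) list 4 members, 2 lower and 2 higher, beside 44.1% and 51.4%. Dusp1 was at 14.2% in control and 31.7% in the library labelled depleted in cluster 4 and at 32.3% and 39% in cluster 7. Cluster 8 lists Junb (76% and 72.9%) and Ier2 (45.6% and 43.8%), both within 4 points. The feedback gene was thus the one member to differ by at least 10 points in a T cell cluster, in cluster 4, where the median listed gene was 12.15 points higher. In cluster 4 the macrophage gene Lyz2 was at 93.4% and 80%, and Cd3e, Cd3g and Cd2 were higher (56.6% to 91.2% in control and 68.7% to 96.5%). In cluster 7 S100a8 and S100a9 (63.6% to 67.7% in control and 40.3% to 46.5%) and Col3a1 (32.3% and 12.6%) were lower, and the part of these in the values of Dusp1 was not tested.

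Clusters 6, 9 and 15 are outside the study's list of named cell types, although its text describes cluster 6, together with cluster 10, as possible proliferating T cells. They list 9 members, 0 lower and 9 higher, beside 58.7% lower and 38.4% higher of all their listings. In cluster 9 Jun was at 5.9% in control and 55% in the library labelled depleted and Junb at 41.2% and 74.1%. The other 3 there were Klf6 (11.8% and 25.9%), Ier2 (29.4% and 36.5%) and Fos (23.5% and 30.2%). The study describes cluster 9 as holding few control cells, and its control shares move in steps of at least 5.8 points, so that the control value of Jun is about 1 such step above 0. In cluster 15 Zfp36 was at 40.6% and 77.3%, Klf6 at 37.5% and 68.2%, Ier2 at 6.2% and 27.3%, and Fos at 21.9% and 36.4%. The study describes cluster 15 as small, and as unidentified or carrying markers of mixed cell types. The smallest distances between its shares were 3.1 points in control and 4.5 points in the other library. Every listed member was higher in clusters 9 and 15, while 64.4% and 50.4% of all genes listed there were lower. Of the markers checked, cluster 9 lists 4, the T cell gene Cd3g at 94.1% in control and 97.9%, the B cell gene Cd79b at 23.5% and 38.1%, the neutrophil gene S100a8 at 58.8% and 27.5%, and the fibroblast gene Col3a1 at 41.2% and 16.9%. In cluster 15 the 4 listed markers were all lower (S100a8 and S100a9 at 62.5% in control and at 22.7% to 27.3%, Lyz2 at 56.2% and 31.8%, and Col3a1 at 50% and 18.2%), and the part of such foreign RNA in the members' differences was not tested.

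Taken gene by gene, Dusp1 was the member with the most even direction among the clusters, higher in 7 of the 8 that list it, from 6.7 points (cluster 7) to 41.3 points (cluster 13), and lower in cluster 18 (-12.9 points). Relative to the median listed gene of each table these signs were the same, but clusters 0, 3 and 4 went from 11.3, 10.4 and 17.5 points to 2, 6.7 and 5.4, cluster 7 went to 15.2 and cluster 18 to -1.1. Klf6 was higher in 5 of 7, and the lower ones were the fibroblasts of cluster 5 and the natural killer cells of cluster 14. Zfp36 was higher in 4 of 5, Junb in 3 of 5 and Fos in 5 of 8. Ier2 was lower in 5 of 7 and Jun in 4 of 6. Differences smaller than the coarse steps named above are included in these counts.

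The wider lists were listed in both directions too. The other AP-1 and CREB-like factors had 18 listings, 10 lower and 8 higher, and the other immediate early and feedback genes had 136, of which 53 were lower and 80 higher. In cluster 5 these numbers were 1 and 0, and 6 and 4, and in the immune clusters 8 and 8, and 41 and 60. Ier3, an early survival gene, was at 18.9% in control and 63.4% in the library labelled depleted in cluster 13. Jund was at 91% and 60.4% in cluster 11 and at 18.2% and 64.7% in cluster 18. In cluster 5, Jund (95.6% and 93.6%), Ier3 (76.8% and 72.7%) and Klf4 (55.4% and 50.3%) were within about 5 points and Nr4a1 was at 38.9% and 44.9%.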

How the data were processed

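Gene expression in interstitial cells of the infarcted ventricle was measured by 10x Chromium 3′ single-cell sequencing in 2 libraries, control and labelled depleted. Per the submitters' processing notes and the study's methods, the authors aligned reads with Cell Ranger (6.1.1) to GRCm39, normalized them with SCTransform in Seurat, clustered the cells, and compared the libraries within 18 clusters and, after a second normalization, within 4 fibroblast subclusters. Cluster 16 and subclusters 1 and 2 were not analysed here, and no doublet caller is named in the sources used here.

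The deposited tables give for each gene the fraction of cells of each library with a value above 0, which the authors rounded to 3 decimals and which is printed here as a percent. Per their code these values are the SCTransform data, counts corrected for depth by a model fitted to all cells and again to cluster 5 alone, so the shares depend on that correction. They also hold the authors' average log2 fold change, p-value and adjusted p-value over cells, which were not used. All columns of per-library values were mapped to a library (0 unmapped). Background from free RNA and doublets can enter a share. The study states totals of cells per library and mean reads per cell, but the tables give no cells or counts per cluster and library, so no interval or detection limit is given.

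Differences between the 2 libraries, their counts past 10 percentage points and their medians were computed with Python 3.11.15, pandas 2.3.3 and numpy 2.4.6. With 1 library per group no test was made. Counts were set beside those of all genes of at least 25% (subclusters) or all listed genes (clusters). Every member is named in each table that lists it. From the wider lists only Fosl2, Jund, Nr4a1, Btg2, Ier3, Klf2, Klf4, Zfp36l1, Nfkbia, Socs3, Hspa1a, Hspa1b and Dnajb1 could be named. The members and lists were chosen with earlier results of these data known. Promoter windows of 250 bases were read from GRCm39 at GENCODE canonical starts, and the half-site motif was added after the sequences were seen. The counting step was tested on simulated data. Alternatives were other size limits, ratios in place of differences, centring, and subsets of clusters. Leaving out a replicate was not possible.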

Additional observations from a re-analysis of the deposited data

Results flagged for a closer look

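Several members differed by at least 10 percentage points in one direction in one cell population and by at least 10 points in the other direction in another. Each population holds 1 library per group, so the difference between populations was not tested. Among the clusters, Fos was at -23.6 points in the dendritic cells of cluster 17 and at 31.5 points in the neutrophils of cluster 18. Jun was at -11.8 points in cluster 17 and 49.1 points in cluster 9, and Junb at -13.2 and 32.9 points in the same clusters. Klf6 was at -19.6 points in the natural killer cells of cluster 14 and 30.7 points in cluster 15. Ier2 was at -31.8 points in cluster 17 and 21.1 points in cluster 15, and Dusp1 at -12.9 points in cluster 18 and 41.3 points in the macrophages of cluster 13. Relative to the median listed gene, Jun and Junb in cluster 17 were not lower (1.8 and 0.4 points), and Dusp1 in cluster 18 was at -1.1 points, so that on that scale none of these 3 was lower by at least 10 points in those clusters.

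Among the fibroblast subclusters, Atf3 was at -12.2 points in subcluster 5 and 11 points in subcluster 0. Klf6 was at -15 points in subcluster 0 and 22.5 points in subcluster 4. Ier2 was at -11.9 points in subcluster 0 and 11.9 points in subcluster 3.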

How the results depend on the processing

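No paired analysis was possible because either group is 1 library alone. Of 76 alternative values of counts and medians, 52 stayed within the limits set for them, 24 moved and 0 changed direction. Of 51 member differences of at least 10 points, 2 changed sign when centred on the median listed gene of the table, Jun (to 1.8) and Junb (to 0.4) in cluster 17. With a limit of 5 points, 5 members were lower in subcluster 0 and 6 higher in subcluster 4. With 20 points, 0 were lower and 0 higher in subcluster 0, 0 lower and 1 higher in subcluster 3, 0 lower in subcluster 4 and 0 higher in subcluster 5. With a log2 ratio of shares of at least 0.5 in size, 0 were lower and 0 higher in subcluster 0, 1 lower and 1 higher in subcluster 3, 0 higher in subcluster 4 and 0 higher in subcluster 5. A member with a high control share cannot reach this ratio upwards even at 100%. In subcluster 4 Egr1 and Klf6 went from 75% and 77.5% to 100% and gave 0.415 and 0.3677. Jun began at 77.5% there, so none of these members could be counted as higher. With the same limit on the log2 ratio of the mean counts that a Poisson spread would give, 4 were lower in subcluster 0, and 1 lower and 2 higher in subcluster 3. The median difference in subcluster 4 was 3.75 points after centring, and the mean in subcluster 5 was -4.85 points. Lower listings in the 18 clusters numbered 11 at 10 points and 12 at 5 points, those in immune clusters 10 at 10 points and 6 in macrophage and monocyte clusters alone, and that of cluster 5 was 1 at 10 points. Most counts in subclusters therefore depend on the size limit. The numbers of cells per cluster, which are not given, limit every value. This holds most of all in subcluster 4 of the library labelled depleted and in clusters 9, 10, 15, 17 and 18, whose shares move in coarse steps.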

Other observations

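The heat shock genes, another group known to be induced by cell stress, were detected in all 4 fibroblast subclusters (11 of 11 with a share of at least 25% in either library), with a median difference of 0 points in each. By at least 10 points, 0 were lower and 1 higher in subcluster 0, 0 and 0 in subcluster 3, 0 and 2 in subcluster 4, and 2 and 2 in subcluster 5. Hspa1b, an inducible HSP70, was counted in 43.5% of control cells and 81% of cells of the library labelled depleted in subcluster 5, and Hspa1a in 68.3% and 84.4% in subcluster 0. In the 18 clusters the heat shock genes were listed 28 times, 12 lower and 15 higher. Hspa1a was at 0% and 54.5% in the dendritic cells of cluster 17, where the 5 listed members were lower.

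The genes whose 8 subcluster shares correlated most with the mean of the 10 members, among 10164 genes outside the lists, were Gstm1 (Pearson r 0.93), Mpp7 (0.90), Zbtb7b (0.90), Sqor (0.87) and Rasl10a (0.87). The 8 points share 2 libraries and 4 subclusters, and the best of so many genes must correlate highly, so these values are a description.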
